A study of Mus musculus with 9 samples.

Results

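Interferon-stimulated genes were examined in microglia, the macrophages that reside in the brain, from mice that model Alzheimer's disease. The genes were taken from a list of 39, and each was represented by the probe set with the highest mean among those annotated to that gene alone. Such a probe set was found for 36 genes of 19938 on the array. Isg15 and Gbp2 each had 1 probe set shared with another gene symbol, no single-symbol probe set carried Ifi44, and these 3 genes are named only. A further 2, Mx1 and Cmpk2, averaged below the median of all probe sets (5.31 on the log2 scale), which left 34 members among the 10795 genes tested.

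The 9 arrays came from 9 mice, 3 of each genotype. R47H mice expressed the R47H variant of human TREM2, CV mice its common variant and KO mice no human TREM2. All 9 were 8.5 months old, carried the 5XFAD transgenes that drive amyloid deposition, and lacked mouse TREM2, so the KO mice had no TREM2 of either species and there was no group with mouse TREM2 or without 5XFAD. In every genotype mouse 1 was female and mice 2 and 3 were male. The comparisons ask whether either human TREM2, and which of the variants, goes with another level of these genes. The promoter of the human gene and its way of insertion are not given in the labels. The cells had been gated as CD45+ CD11b+, markers that neutrophils and other myeloid cells also carry, and each array was made from 2 ng of RNA. Of the microglial markers listed, 11 of 11 with a single-symbol probe set lay above the filter in the mean over arrays. No probe set used here checked the genotype labels.

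Type I interferons are secreted when a cell senses foreign or misplaced nucleic acid. They bind a receptor built of Ifnar1 and Ifnar2, whose kinases Jak1 and Tyk2 pass the signal on to Stat2. Together with Irf9, Stat2 acts in a complex that binds interferon-stimulated response elements in promoters and switches on antiviral genes together. TREM2 is a lipid-sensing receptor of microglia, and R47H is one of its rarer variants, linked to Alzheimer's risk in people. Microglia with raised interferon-stimulated genes are a known state of the ageing and amyloid-laden brain.

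No member passed the test in any comparison of genotypes, and the members moved together from mouse to mouse. R47H mouse 3 held the highest value of the 9 arrays in 29 of 36 members, where it was highest in 8.98% of all tested genes. It lay above the mean over arrays in 36 of 36, above R47H mouse 2, also male, in 35 and above R47H mouse 1 in 35. Among all tested genes it was above R47H mouse 2 in 46.5%. CV mouse 2 was the lowest array in 17 of 36 members, where it was lowest in 10.7% of all tested genes. KO mouse 2 was lowest in 9 and R47H mouse 2 in 6.

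The median deviation of the 36 members from their own means was 0.11, -0.16 and 0.56 on the log2 scale in R47H mice 1 to 3, -0.18, -0.33 and 0.02 in CV mice, and 0.21, -0.19 and -0.05 in KO mice. R47H mouse 3 stood above the other 8 arrays, and the ranges of the 3 genotypes overlapped. Over the tested members the mean of this median was 0.20 ± 0.41 in R47H, -0.17 ± 0.18 in CV and -0.006 ± 0.22 in KO (SD, n = 3 each). The spread between R47H mice thus exceeded the distance between genotype means. Over all tested genes the median deviation of R47H mouse 3 was 0.0012, and it lay between -0.0095 and 0.012 on the 9 arrays. Array medians were alike in the deposited values, so this value cannot show whether an array stands apart. Correlations between arrays were 0.981 to 0.990 over all pairs. Mice of a genotype are separate animals per the labels, but a larger number of interferon-responding cells and more RNA per cell cannot be told apart in pooled cells.

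**Figure D1:**
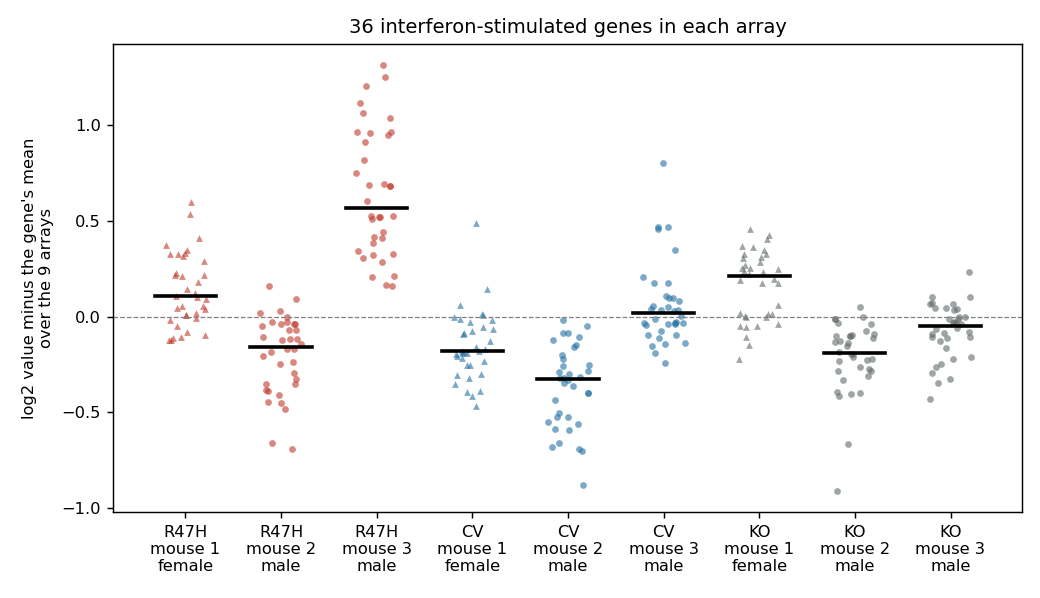
Each point is 1 of 36 interferon-stimulated genes in 1 array, as its log2 value minus that gene's mean over the 9 arrays, and each bar is the array's median. The points of R47H mouse 3 all lie above 0 with a median of 0.56, and those of CV mouse 2 all lie below 0 with a median of -0.33.

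In R47H mouse 3 the members exceeded R47H mouse 2 by a median of 0.74 on the log2 scale. The difference reached 1 in 13 members and in 44 of all 10795 tested genes (0.408%). Beside the 13 members, those 44 held 4 genes from the lists of other interferon-induced and interferon-gamma-responsive genes and 1 neutrophil marker. The 13 were Usp18 (1.77), Ifit1 (1.66), Rsad2 (1.64), Oas1a (1.60), Irf7 (1.52), Ifit3 (1.40), Oas2 (1.31), Oasl2 (1.30), Ifit2 (1.24), Zbp1 (1.17), Rtp4 (1.10), Bst2 (1.07) and Xaf1 (1.07). As a comparison of 1 array with 1, this has no test.

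The members also varied more than most genes within a genotype. Their median within-genotype SD was 0.34, against 0.12 over all tested genes, and 25 of 34 tested members lay in the top 10% of all tested genes. The median SD of the 3 genotype means was 0.19 for the members and 0.071 over all tested genes. In 32 of 34 tested members the SD within genotypes was larger than that of the genotype means. The medians over all tested genes stood in the same order, 0.12 and 0.071, so this order is not particular to the members.

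Each member was set against the median of the other tested members over the 9 arrays, as a description, since arrays and normalization are shared. Pearson's r ran from 0.27 for Samd9l to 0.98 for Rtp4, with a median of 0.89, and 24 of 34 members reached 0.8, as did 81 of the other 10761 tested genes. Without R47H mouse 3, over 8 arrays, r ran from 0.078 to 0.94 with a median of 0.76, and 13 members reached 0.8. The likeness was lower without that array. Beside Samd9l, the members least like the rest over 9 arrays were Gbp3 (0.49), Irf9 (0.61), Dtx3l (0.64) and Mx2 (0.64).

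The members' promoters were searched for the interferon-stimulated response element named above, which was not found in every member. RefSeq promoters, windows of 300 bases from 250 before to 50 after a gene's start on GRCm38.p6, were at hand for 26 of the 36 members. The core of the interferon-stimulated response element was searched as GAAANNGAAA, and TTTCNNTTTC on the other strand. It was found in a promoter of 13 of 26 members (50%) and of 1079 of all 27025 genes in the table (3.99%). More than 1 match in a promoter was held by 6 members, but in Bst2, Gbp3 and Oas1a the matches overlapped. The gamma-activated site, searched as TTCNNNGAA, which reads the same on both strands, was found in 6 of 26 members (23.1%) and in 9.55% of all genes. R47H mouse 3 exceeded R47H mouse 2 by a median of 0.72 in the 13 members with the response element and 0.71 in the 13 without it on the log2 scale. A match is a match of letters only, and its absence says nothing about binding elsewhere.

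Of the 26 members with a promoter at hand, those of the 5 with the widest range over the arrays follow, 5′ to 3′ on the gene's strand, with the response element core in capitals. Those of Ifit1 (chr19:34640639-34640938, plus strand) and Ifit3 (chr19:34583279-34583578, plus strand) each held 2 copies, the nearer lying 75 and 112 bases before the start. The promoter of Rsad2 (chr12:26456403-26456702, minus strand) held 1 copy 110 bases before the start. Neither the window of Ifit2 (chr19:34550444-34550743, plus strand) nor that of Oasl2 (chr5:114896684-114896983, plus strand) held one.
Ifit1: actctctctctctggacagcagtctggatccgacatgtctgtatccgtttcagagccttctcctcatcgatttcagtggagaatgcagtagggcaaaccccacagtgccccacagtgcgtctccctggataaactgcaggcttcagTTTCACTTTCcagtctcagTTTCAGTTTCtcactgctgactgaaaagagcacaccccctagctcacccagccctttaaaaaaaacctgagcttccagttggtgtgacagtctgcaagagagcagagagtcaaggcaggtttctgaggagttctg
Ifit3: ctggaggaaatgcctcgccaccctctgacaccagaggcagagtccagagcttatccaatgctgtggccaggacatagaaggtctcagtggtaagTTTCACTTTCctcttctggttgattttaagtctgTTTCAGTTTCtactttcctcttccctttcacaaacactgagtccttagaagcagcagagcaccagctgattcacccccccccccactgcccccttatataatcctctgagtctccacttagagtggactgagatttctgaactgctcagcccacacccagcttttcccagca
Rsad2: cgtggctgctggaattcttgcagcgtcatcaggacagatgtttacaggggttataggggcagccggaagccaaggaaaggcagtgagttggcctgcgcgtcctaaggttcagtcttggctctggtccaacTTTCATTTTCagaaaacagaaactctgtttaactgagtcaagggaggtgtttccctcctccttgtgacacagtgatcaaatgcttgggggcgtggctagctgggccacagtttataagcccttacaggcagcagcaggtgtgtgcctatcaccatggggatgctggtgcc
Ifit2: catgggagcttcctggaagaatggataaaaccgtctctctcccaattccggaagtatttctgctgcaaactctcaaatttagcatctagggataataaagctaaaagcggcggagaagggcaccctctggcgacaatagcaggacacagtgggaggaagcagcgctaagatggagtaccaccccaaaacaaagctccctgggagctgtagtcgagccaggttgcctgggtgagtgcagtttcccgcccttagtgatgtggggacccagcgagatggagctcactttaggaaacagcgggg
Oasl2: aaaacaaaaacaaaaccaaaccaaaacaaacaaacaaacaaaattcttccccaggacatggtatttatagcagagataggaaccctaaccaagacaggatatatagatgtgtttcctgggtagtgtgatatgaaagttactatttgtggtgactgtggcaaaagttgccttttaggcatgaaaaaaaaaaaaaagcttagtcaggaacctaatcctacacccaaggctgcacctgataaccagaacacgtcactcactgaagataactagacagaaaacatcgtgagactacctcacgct

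The 3 IFIT genes, neighbours on chromosome 19, encode proteins that bind viral RNA and halt its translation. They were the role group in which R47H mouse 3 stood highest, at a median deviation of 1.2. Ifit2 (probe set 10462613, gene at chr19:34550550-34576534 in RefSeq on GRCm38.p6) read 7.64, 7.23 and 8.48 in R47H mice 1 to 3, 6.95, 6.39 and 7.23 in CV mice, and 7.28, 6.99 and 7.23 in KO mice (log2 values, as all levels here). It had the widest range of any member, 2.08 on the log2 scale or 4.23-fold between R47H mouse 3 and CV mouse 2. Its R47H minus CV difference was 0.92 ± 0.31 (SE), with an adjusted p of 0.281 by limma. The groups overlapped because R47H mouse 2 and CV mouse 3 held the same deposited value, which KO mouse 3 also held. Ifit1 (10462623, chr19:34640889-34650009), which recognises RNA without the host's cap methylation, read 5.40, 5.13 and 6.79 in R47H, 5.29, 4.82 and 5.51 in CV, and 5.72, 5.27 and 5.39 in KO mice. The single high array was R47H mouse 3, 3.16-fold above R47H mouse 2, and R47H mice 1 and 2 lay within the range of the other genotypes. Ifit3 (10462618, chr19:34583119-34588982), a partner of Ifit1, read 8.61, 8.13 and 9.53 in R47H, 8.41, 7.90 and 8.56 in CV, and 9.04, 8.44 and 8.66 in KO mice. Here KO mouse 1 was the highest after R47H mouse 3, and the R47H minus KO difference was 0.05 ± 0.33. Whether the Ifit3 probe set also sees its close copy Ifit3b was not checked.

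The 5 oligoadenylate synthetase genes, on chromosome 5, make or resemble enzymes that make the messenger activating RNase L, which degrades RNA. R47H mouse 3 was highest in 5 of 5. Oasl2 (10524621, chr5:114896926-114912245) read 7.77, 7.21 and 8.51 in R47H, 7.19, 6.75 and 7.37 in CV, and 7.76, 7.36 and 7.12 in KO mice. Its R47H minus CV difference was 0.73 ± 0.31 (limma adjusted p = 0.389), and R47H mouse 2 lay inside the CV range. Oas1a (10533256), which has several close relatives in the mouse, read 7.53, 6.49 and 8.10 in R47H, 7.16, 6.62 and 7.28 in CV, and 7.51, 7.05 and 6.92 in KO mice. The R47H mice held both its highest and its lowest array, mouse 3 being 3.04-fold above mouse 2. Oas3 (10533213) had the third narrowest range of all members, 0.56, at 5.58, 5.23 and 5.74 in R47H, 5.54, 5.18 and 5.37 in CV, and 5.29, 5.30 and 5.37 in KO mice. Oas2 and Oasl1 ranged over 1.43 and 1.21 across the arrays.

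Of the 8 antiviral effectors, 6 were highest in R47H mouse 3. Rsad2 (10399710, chr12:26442743-26456452), or viperin, which makes a nucleotide that stops viral RNA synthesis, read 6.26, 5.98 and 7.62 in R47H, 6.17, 6.01 and 6.27 in CV, and 6.62, 6.14 and 6.26 in KO mice. All arrays but R47H mouse 3 lay between 5.98 and 6.62. Cmpk2 (10395039), a mitochondrial nucleotide kinase encoded beside Rsad2, read 4.58, 4.26 and 4.67 in R47H, 4.35, 4.22 and 4.21 in CV, and 4.38, 4.26 and 4.35 in KO mice, below the filter and untested. Mx2 (10437224), a dynamin-like GTPase that blocks viruses, read 5.57, 5.64 and 6.37 in R47H, 5.29, 5.39 and 6.48 in CV, and 5.64, 5.01 and 5.71 in KO mice. Its highest array was CV mouse 3, just above R47H mouse 3. Mx1, also below the filter, ran from 4.58 to 5.55, and R47H mice 2 and 3 were its lowest and highest arrays. Ifitm3 (10569017), a membrane protein that hinders viral entry, read 11.28, 10.83 and 11.55 in R47H, 10.77, 10.60 and 10.85 in CV, and 11.12, 10.75 and 10.78 in KO mice. R47H mice 1 and 3 were its highest arrays, and its R47H minus CV difference of 0.48 ± 0.17 had a limma adjusted p of 0.301. Bst2, or tetherin, which holds budding virus at the cell surface, ranged over 1.07 and Eif2ak2, the RNA-activated kinase PKR, over 0.81, both highest in R47H mouse 3.

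Samd9l (10542911, chr6:3372257-3399571), an inducible protein that restricts poxviruses and slows growth, did not follow the others. It read 6.45, 6.38 and 6.68 in R47H, 6.84, 6.31 and 6.82 in CV, and 6.13, 5.45 and 6.13 in KO mice. All 3 R47H and all 3 CV mice lay above all 3 KO mice. The difference was 0.75 ± 0.20 for CV minus KO (limma adjusted p = 0.141) and 0.60 ± 0.20 for R47H minus KO (adjusted p = 0.671 by limma), the smallest adjusted p of any member in both comparisons. These comparisons share the KO mice, of which mouse 2 was the lowest, and without it the differences were 0.54 (limma adjusted p = 0.321) and 0.38 (limma adjusted p = 0.796). Between the variants, R47H minus CV was -0.16 ± 0.20.

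**Figure D2:**
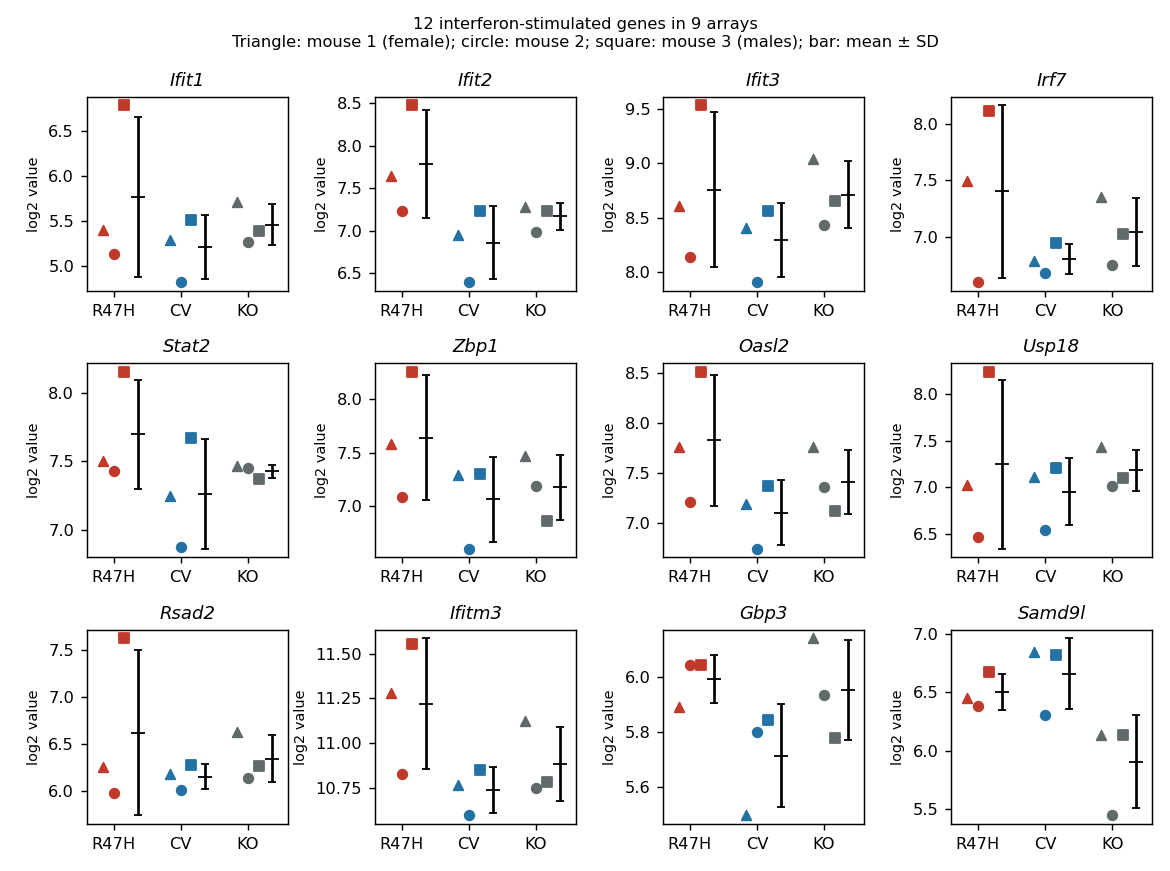
Log2 values of 12 interferon-stimulated genes in each mouse, with R47H, CV and KO from left to right and the bar giving mean ± SD (n = 3). R47H mouse 3, the red square, is the highest point in 10 panels, while in Samd9l the 3 KO mice lie below the other 6 mice and in Gbp3 the 3 R47H mice lie above the 3 CV mice.

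Among the 4 cytoplasmic sensors R47H mouse 3 was highest in 4 of 4. Zbp1 (10490150), which binds left-handed nucleic acid and can trigger cell death, read 7.58, 7.09 and 8.26 in R47H, 7.29, 6.60 and 7.30 in CV, and 7.47, 7.19 and 6.87 in KO mice. Its R47H minus KO difference was 0.47 ± 0.29 (limma adjusted p = 0.933), and R47H mouse 2 lay below KO mice 1 and 2. Dhx58 (10391207), or LGP2, a relative of the RNA sensors without their signalling domains, read 6.81, 6.07 and 7.0 in R47H, 6.30, 5.98 and 6.52 in CV, and 6.89, 6.35 and 6.42 in KO mice. R47H mice 1 and 3 and KO mouse 1 were its 3 high arrays. The RNA sensors Ifih1 (MDA5) and Ddx58 (RIG-I) ranged less, over 0.66 and 0.70.

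The 4 genes of signalling and transcription were likewise highest in R47H mouse 3. Irf7 (10569102), the factor that amplifies type I interferon production, read 7.49, 6.60 and 8.12 in R47H, 6.78, 6.68 and 6.94 in CV, and 7.35, 6.75 and 7.02 in KO mice. R47H mouse 3 was 2.87-fold above R47H mouse 2, which was the lowest of the 9. Stat2 (10367224), which carries the receptor's signal, read 7.50, 7.43 and 8.15 in R47H, 7.24, 6.87 and 7.67 in CV, and 7.46, 7.45 and 7.37 in KO mice. Mouse 3 was the highest of the R47H and of the CV mice, whereas the KO mice lay between 7.37 and 7.46. Irf9, its DNA-binding partner, was 7.35 ± 0.08 in R47H and 7.18 ± 0.07 in CV (SD, n = 3 each), with no overlap and a limma adjusted p of 0.655. Sp100, a nuclear body protein, ranged over 0.93.

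Conjugation of the ubiquitin-like Isg15 was represented by 2 genes. Usp18 (10541307, chr6:121245906-121270917), which removes Isg15 and restrains the interferon receptor, read 7.03, 6.47 and 8.24 in R47H, 7.11, 6.54 and 7.21 in CV, and 7.43, 7.02 and 7.10 in KO mice. It had the widest gap between R47H mice 3 and 2, 3.41-fold, while R47H mouse 1 lay below KO mice 1 and 3. Herc6 (10538590), the main Isg15 ligase of the mouse, read 7.20, 7.10 and 7.49 in R47H, 6.85, 6.83 and 7.18 in CV, and 7.44, 6.68 and 6.95 in KO mice. KO mouse 1 nearly equalled R47H mouse 3, and KO mouse 2 was lowest.

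The 4 ADP-ribosyltransferases and ubiquitin ligases ranged over 0.43 to 0.70 across the arrays. Trim30a (10566358), a ligase that dampens Toll-like receptor signalling, read 9.37, 9.30 and 9.74 in R47H, 9.20, 9.07 and 9.38 in CV, and 9.55, 9.04 and 9.30 in KO mice. Dtx3l (10439268), a ubiquitin ligase that pairs with Parp9, had the narrowest range, 0.43, at 7.53, 7.30 and 7.58 in R47H, 7.36, 7.22 and 7.23 in CV, and 7.65, 7.23 and 7.65 in KO mice. Its highest arrays were KO mice 1 and 3. Parp9 (10435457) read 7.66, 7.51 and 7.72 in R47H, 7.34, 7.41 and 7.57 in CV, and 7.77, 7.10 and 7.56 in KO mice, and KO mice held both its extremes. Parp14 (10439249), a mono-ADP-ribosyltransferase, read 7.82, 7.90 and 8.39 in R47H, 7.79, 7.78 and 8.29 in CV, and 7.79, 7.75 and 7.98 in KO mice. Mouse 3 was the highest in each genotype.

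Gbp3 (10496580), a guanylate-binding GTPase that acts on intracellular pathogens and has close relatives, read 5.89, 6.04 and 6.04 in R47H, 5.50, 5.80 and 5.84 in CV, and 6.14, 5.93 and 5.78 in KO mice. All 3 R47H mice lay above all 3 CV mice, and it was the one member in which R47H mouse 3 did not exceed R47H mouse 2. Its R47H minus CV difference was 0.28 ± 0.12 (limma adjusted p = 0.395).

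Of the 5 remaining members, 3 were highest in R47H mouse 3. Rtp4 (10434778), a chaperone of cell-surface receptors, read 8.25, 8.0 and 9.10 in R47H, 7.73, 7.62 and 8.10 in CV, and 8.47, 7.83 and 8.19 in KO mice. It was the member closest to the median of the others. Ifi27l2a (10402347), a small interferon-induced protein from a family of close copies, read 11.67, 10.78 and 11.75 in R47H, 10.72, 10.52 and 10.93 in CV, and 11.49, 11.06 and 10.72 in KO mice. R47H mice 1 and 3 and KO mouse 1 were high, and its R47H minus CV difference was 0.68 ± 0.25 (limma adjusted p = 0.313). Lgals3bp (10393573), a secreted glycoprotein that binds galectins, read 12.12, 11.21 and 12.11 in R47H, 11.65, 11.19 and 11.35 in CV, and 11.93, 11.36 and 11.38 in KO mice. In each genotype the female was the highest, and its female minus male difference was 0.47 ± 0.17 (limma adjusted p = 0.349). Xaf1, a pro-apoptotic protein, ranged over 1.12, and Ifi35, an interferon-induced leucine zipper protein, over 0.63.

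Against KO mice, 0 of 34 tested members were called for R47H (limma, Benjamini-Hochberg adjusted p under 0.05), where 0.0834% of all tested genes were. At an unadjusted p under 0.05 the count was 1 of 34, where it was 5.68% of all tested genes. The R47H minus KO difference was positive in 32 of 34 members, with a median of 0.24, and positive in 49.6% of all tested genes, with a median of -0.0011. The negative members were Ifi35 (-0.07) and Dtx3l (-0.04). In 1 member, Samd9l, all R47H mice lay above all KO mice, as in 3.84% of all tested genes. Without R47H mouse 3 the median was 0.01 and 19 of 34 differences were positive, and without R47H mouse 2 it was 0.45 with 34 of 34 positive. The count at an unadjusted p under 0.05 was 14 of 34 without R47H mouse 2, against 6.31% of all tested genes, and 0 to 3 when any other array was left out.

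Between the variants, R47H minus CV, 0 of 34 members were called, where 0.797% of all tested genes were. At an unadjusted p under 0.05 there were 6 of 34, namely Ifit2, Ifitm3, Ifi27l2a, Oasl2, Ddx58 and Gbp3, against 12.4% of all tested genes. The difference was positive in 33 members, all but Samd9l, with a median of 0.35, and in 53.4% of all tested genes, with a median of 0.01. All R47H mice lay above all CV mice in 2 members, Irf9 and Gbp3, against 8.74% of all tested genes. Microglial markers were positive in 10 of 11, with a median of 0.15. The members' median was 0.10 without R47H mouse 3, when 27 of 34 remained positive, 0.60 without R47H mouse 2, and 0.24 without CV mouse 2. The count of 6 at an unadjusted p under 0.05 was 19 without R47H mouse 2, against 10.6% of all tested genes, and 9 without CV mouse 3, against 9.74%. It was 0 without CV mouse 2, 1 without R47H mouse 3 or CV mouse 1, 2 without R47H mouse 1, and 4 without any one of the KO mice.

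For CV minus KO, 0 of 34 members were called, where 1.21% of all tested genes were, and 1, Samd9l, had an unadjusted p under 0.05 against 13.2%. The difference was negative in 28 members, with a median of -0.15, and in 55.0% of all tested genes, with a median of -0.02. Microglial markers were also negative in CV minus KO, 11 of 11 with a median of -0.16, and the part of this shift in the members was not tested. The positive members were Samd9l (0.75), Mx2 (0.27), Parp14 (0.11), Oas3 (0.04), Irf9 (0.04) and Oas2 (0.02). Without CV mouse 2 the median was -0.04 and without KO mouse 1 it was -0.04, and in both cases 21 of 34 were negative. All CV mice lay above all KO mice in Samd9l alone, against 5.90% of all tested genes. An F-test of any genotype difference also called 0 of 34, against 1.32% of all tested genes. At an unadjusted p under 0.05 it gave 2 of 34 against 12%. Without R47H mouse 2 it gave 15 of 34, but the share of all tested genes in that fit is not given here, so this count cannot be weighed.

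**Figure D3:**
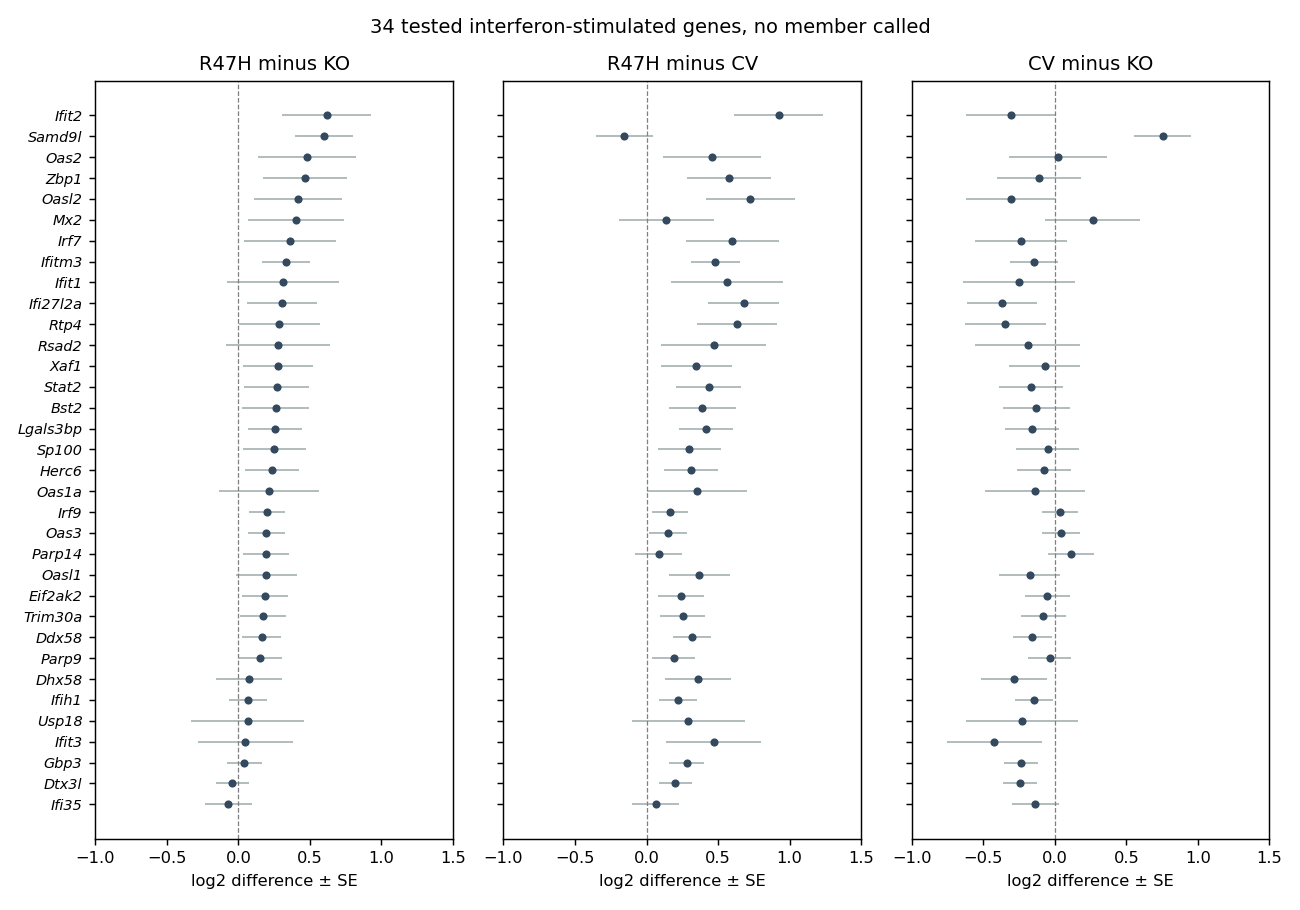
Log2 difference ± SE from the limma model for each of the 34 tested members in the 3 comparisons of genotypes, ordered by R47H minus KO. Most differences lie right of 0 for R47H minus KO (32 of 34) and R47H minus CV (33 of 34) and left of 0 for CV minus KO (28 of 34), with Samd9l apart at 0.75 in the last.

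**Figure D4:**
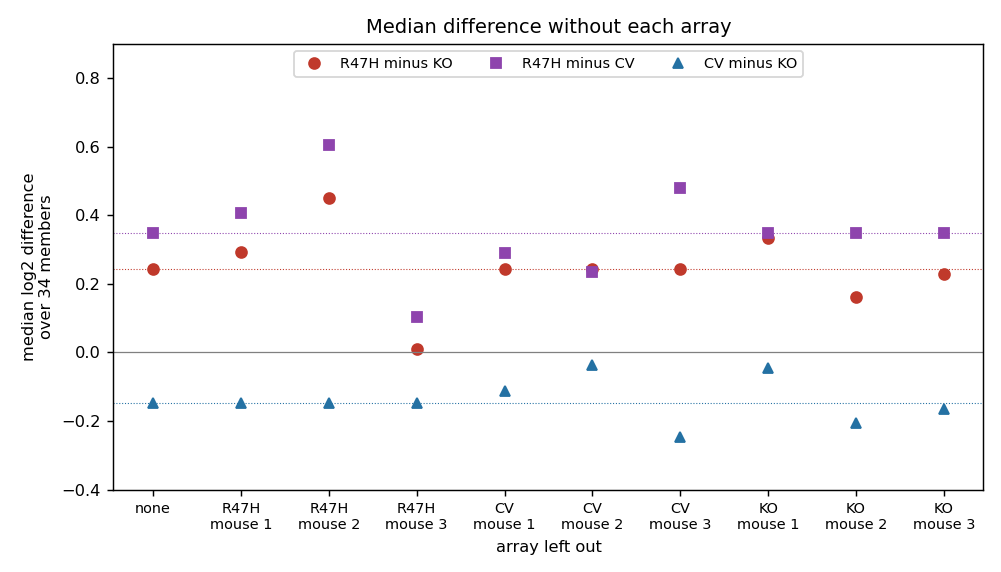
Median log2 difference over the 34 members with all arrays and with each array left out in turn, for 3 comparisons. The R47H minus KO median lies at 0.01 without R47H mouse 3 and at 0.45 without R47H mouse 2.

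Sex, the other labelled factor, gave 0 of 34 called members for female minus male, where 0.0648% of all tested genes were called, and 1, Lgals3bp, had an unadjusted p under 0.05 against 11.0%. The difference was positive in 24 of 34, with a median of 0.09, and in 54.0% of all tested genes. Without R47H mouse 3 the median was 0.19 and 12 of 34 had an unadjusted p under 0.05, against 10.5% of all tested genes. Without KO mouse 1 the median was -0.03, with 13 of 34 positive, and the median was 0.03 without KO mouse 2 or without R47H mouse 2, 0.05 without CV mouse 2 and 0.19 without R47H mouse 1. The female was above male 2 in 32 of 36 members in R47H, 30 of 36 in CV and 33 of 36 in KO. Male 3 was above the female in 35 of 36 in R47H and 28 of 36 in CV, and below it in 26 of 36 in KO.

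The rest of the pathway was followed through lists of its other genes. Of the interferon genes themselves, 4 of 15 with a single-symbol probe set were above the filter. Ifnb1, interferon beta, read 5.76, 4.95 and 5.89 in R47H, 5.38, 5.67 and 5.52 in CV, and 5.01, 5.00 and 5.50 in KO mice, near the filter. R47H mouse 3 was its highest array and R47H mouse 2 its lowest, and the R47H minus KO difference was 0.36 ± 0.24 (limma adjusted p = 0.936). Ifng, interferon gamma, lay between 3.75 and 4.18 on the 9 arrays, below the filter. Of the 4 tested interferon genes 0 were called by limma in the 3 comparisons of genotypes. For R47H minus KO 2 had an unadjusted p under 0.05, both lower in R47H, against 5.68% of all tested genes.

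The 2 chains of the type I interferon receptor differed little in mean level between the genotypes. Ifnar1 was 8.07 ± 0.04 in R47H, 8.13 ± 0.03 in CV and 8.05 ± 0.09 in KO, and Ifnar2 was 10.36 ± 0.09 in R47H, 10.28 ± 0.05 in CV and 10.23 ± 0.10 in KO (SD, n = 3 each). Of 8 tested genes in this list limma called 0 in the 3 comparisons, and R47H mouse 3 was highest in 0 of 9. For CV minus KO 1 (Jak1) had an unadjusted p under 0.05, against 13.2% of all tested genes. The sensing genes upstream of interferon, 15 tested, and the nucleases and editors that remove self nucleic acid, 7 tested, held 0 called genes in these comparisons. They held 0 at an unadjusted p under 0.05, against 5.68% of all tested genes for R47H minus KO, 13.2% for CV minus KO and 12.4% for R47H minus CV. For R47H minus KO the median differences of these lists were -0.02 and 0.05. Cgas, the DNA sensor, read 5.56, 5.81 and 5.81 in R47H, 5.90, 5.61 and 6.04 in CV, and 5.76, 5.81 and 5.95 in KO mice, with R47H mouse 3 among the middle values. Of 9 feedback inhibitors 0 were called. At an unadjusted p under 0.05 there were 3 for CV minus KO and 1 for R47H minus CV, against 13.2% and 12.4% of all tested genes. The smallest adjusted p was that of Ptpn2, a phosphatase that switches off Jak kinases, at 0.40 ± 0.10 for CV minus KO (limma adjusted p = 0.107).

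Other genes known to be induced by interferon shared the high array. R47H mouse 3 was the highest in 28 of 48, and the list's median deviation there was 0.32. Of 44 tested, 39 were positive for R47H minus KO, with a median of 0.16, 0 called and 4 at an unadjusted p under 0.05, against 5.68% of all tested genes. For CV minus KO 23 of 44 were positive, with a median of 0.005. Of the 44, 1, Cd72, was called higher, where 1.21% of all tested genes were called in either direction. Cd72, a lectin-like coreceptor, read 8.13, 7.68 and 7.88 in R47H, 8.26, 7.74 and 8.08 in CV, and 7.77, 7.01 and 6.67 in KO mice. Its CV minus KO difference was 0.87 ± 0.16 (limma adjusted p = 0.0397), and KO mouse 1 was above CV mouse 2. Ube2l6, the conjugating enzyme of Isg15, read 7.12, 7.18 and 7.71 in R47H, 6.60, 6.22 and 6.84 in CV, and 7.08, 7.12 and 6.65 in KO mice. All R47H mice lay above all CV mice, at a difference of 0.78 ± 0.21 with a limma adjusted p of 0.184. They did so in 7 of the 44 tested genes, against 8.74% of all tested genes. For R47H minus CV 36 of 44 were positive, with a median of 0.13, against 53.4% of all tested genes. In that comparison 0 were called and 8 had an unadjusted p under 0.05, against 0.797% and 12.4% of all tested genes.

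Genes known chiefly as targets of interferon gamma were high in another set of arrays. Their median deviation was -0.02, 0.22 and 0.22 in R47H mice 1 to 3, so R47H mouse 2, low in the members, was as high as mouse 3. It lay between -0.03 and -0.01 in CV mice and between -0.12 and 0.02 in KO mice. Of 13 tested, 6 had all R47H mice above all KO mice, where 3.84% of all tested genes did, and 0 were called for R47H minus KO, with 5 at an unadjusted p under 0.05, against 5.68% of all tested genes. Gbp5, a GTPase of inflammasome assembly, read 5.98, 6.30 and 6.33 in R47H, 5.30, 5.52 and 5.77 in CV, and 5.89, 5.75 and 5.93 in KO mice. It was the 1 gene of 13 called for R47H minus CV, higher by 0.68 ± 0.11 (limma adjusted p = 0.0373). Of all tested genes 0.797% were called in that comparison. Cxcl9, a chemokine that draws T cells, read 8.15, 7.37 and 8.15 in R47H, 6.52, 7.04 and 6.0 in CV, and 6.89, 5.71 and 6.99 in KO mice. All R47H mice were above the other 6, with differences of 1.36 ± 0.37 against KO (limma adjusted p = 0.451) and 1.37 ± 0.37 against CV (limma adjusted p = 0.187). The list was not uniform, with 9 of 13 positive and 4 negative both for R47H minus KO and for R47H minus CV. Among all tested genes 49.6% and 53.4% were positive. Gbp7 was negative against KO (-0.08 ± 0.15), and Slamf8 against CV (-0.44 ± 0.21, limma adjusted p = 0.450).

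Markers of other cell types differed between the arrays as well. The median deviation of 14 neutrophil markers was -1.08, -0.67 and -0.29 in R47H mice 1 to 3, 0.65, 1.92 and 1.74 in CV mice, and -1.93, -1.56 and 1.77 in KO mice. R47H mouse 3 was highest in 0 of 14, and above R47H mouse 2 in 11 of 14. All 10 tested neutrophil markers were lower in all R47H mice than in all CV mice, where 666 of all 10795 tested genes were. The part of neutrophil RNA in the members' R47H minus CV and CV minus KO differences was not tested. Oligodendrocyte markers lay at 0.88, 0.49 and 0.69 in R47H mice 1 to 3, between -0.68 and -0.21 in CV mice and between -0.65 and 0.12 in KO mice, and astrocyte markers at 0.15, 0.12 and 0.42 in R47H mice, -0.20 to -0.06 in CV mice and -0.18 to 0.003 in KO mice. R47H mouse 3 was highest in 6 of 10 astrocyte markers and in 1 of 9 oligodendrocyte markers. The astrocyte marker Gja1, below the filter, read 5.68, 5.85 and 6.62 in R47H, 4.67, 4.28 and 4.66 in CV, and 5.17, 5.35 and 4.64 in KO mice. Slc1a3, above the filter, read 7.92, 7.94 and 8.04 in R47H, 7.80, 7.78 and 7.87 in CV, and 8.08, 8.21 and 7.92 in KO mice. Of 4 tested astrocyte markers, the R47H minus KO difference was positive in 3 and negative in 1, Slc1a3. In S100b, at 7.90, 7.86 and 7.83 in R47H mice 1 to 3, mouse 3 was the lowest R47H array. The part of either cell type in the members' values was not tested.

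Markers of plasmacytoid dendritic cells, which are strong interferon producers, deviated by a median of -0.07 to 0.07 on every array. This list shares Bst2 with the members and Siglech with the microglial markers. Among its other genes Ccr9 and Ly6d lay below the filter, and Tcf4, Cox6a2, Pacsin1 and Cd300c lay above it. Microglial markers deviated by a median of -0.09 to 0.10 on the 9 arrays and stood at 0.01 in R47H mouse 3, where the members stood at 0.56.

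**Figure D5:**
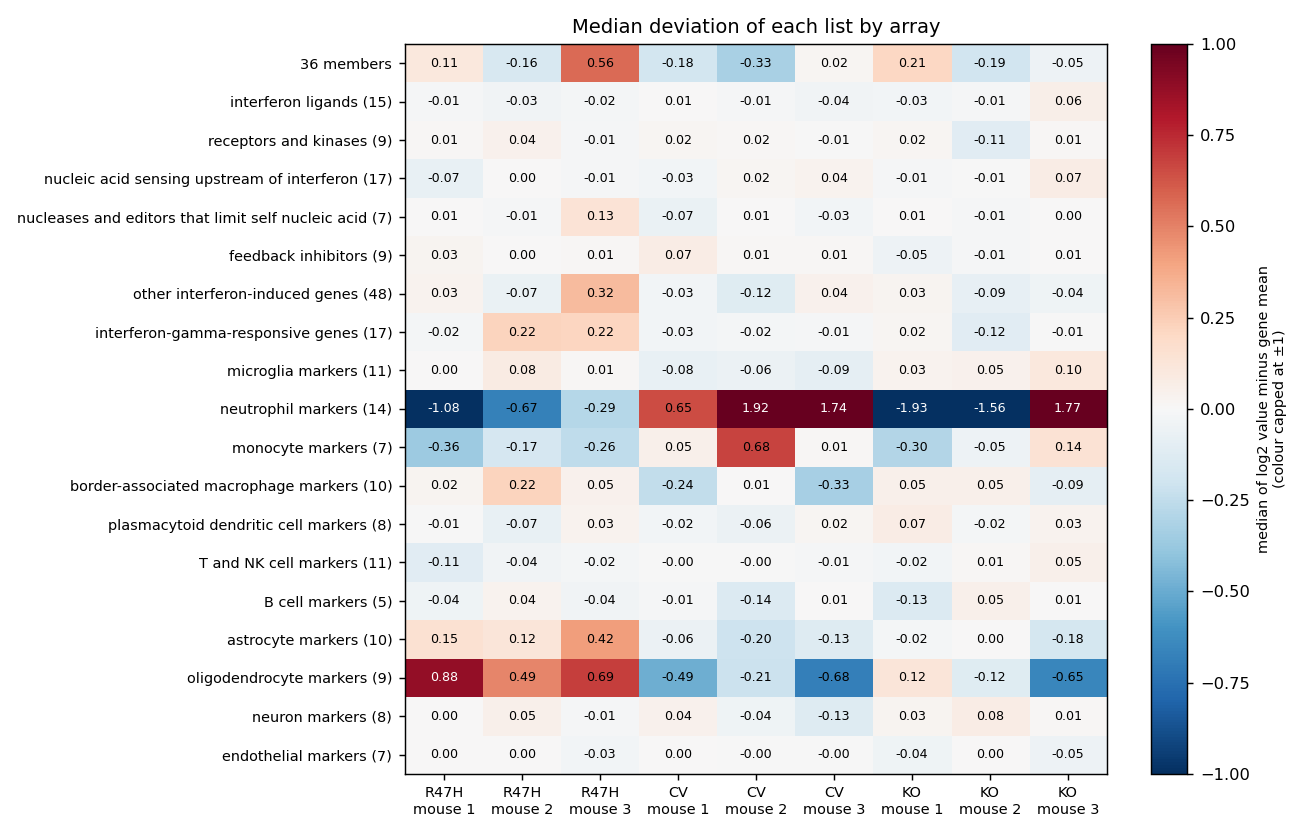
Median deviation of each gene list from its genes' means over the 9 arrays (log2), with the number of genes in parentheses and the colour capped at 1. The members and the other interferon-induced genes peak in R47H mouse 3 (0.56 and 0.32), the interferon-gamma-responsive genes in R47H mice 2 and 3 (0.22 in both), and the neutrophil markers in CV mice 2 and 3 and KO mouse 3.

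The 10 genes outside the list most like the members' median over the 9 arrays, predicted genes left out, began with Slfn5 (r = 0.97), a Schlafen family member that read 6.92, 6.63 and 7.94 in R47H, 6.75, 6.50 and 7.01 in CV, and 7.36, 6.46 and 6.74 in KO mice. Ifi206 (0.93), Rnf213, Cdc42bpb, Ddx60, Araf, Fam160a2, Ifi209, Etnk1 and Exosc1 (0.90) followed. Slfn5 and Ddx60 were on the list of other interferon-induced genes. R47H mouse 3 exceeded R47H mouse 2 by 1.68 in Ifi209, 1.31 in Slfn5 and 1.15 in Ifi206, but by 0.12 in Cdc42bpb. Without R47H mouse 3 the r of these 10 ran from 0.74 to 0.92 over 8 arrays.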

How the data were processed

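The authors deposited log2 values of 35556 probe sets for 9 Affymetrix Gene ST arrays, and the scale was read from the range of the values, 1.31 to 13.9. The labels give no background correction, normalization or summarization, and 51.9% of probe sets held the same value on 2 or more arrays. Gene symbols came from the platform's annotation, and probe sets with a single symbol (21789) were used. Genes with a mean at or above the 50th percentile of all probe sets were tested, two-sided, by lmFit and eBayes of limma 3.58.1 (R 4.3.3), with a term per genotype and one for sex over all 9 arrays. Residual degrees of freedom were 5, the prior added 3.73, and p-values were adjusted over all 10795 genes by Benjamini-Hochberg. The model was tested on simulated data with independent noise in each gene. The members move together, so that test does not show which shifts in them could be detected. The number of arrays limits the precision, and the median residual SD was 0.12.

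The members, the pathway and marker lists and the rule for named genes were chosen with earlier results of these data known, so no list's direction is independent evidence. The rule gave values in all arrays for 25 members: the 2 with the widest range in each role group, or all of a group of up to 3, the 3 narrowest of all members, and the 3 with the smallest p in each comparison. Of each pathway list it named called genes and those with the smallest p, and the text gives values for only some of these. Median deviations and counts over lists carry no test. Cross-hybridisation with close paralogs was not checked. Alternatives left out each array in turn. Others changed the sex term, the filter, the probe set rule, the normalization, the weights and limma's trend and robust settings.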

Additional observations from a re-analysis of the deposited data

How the results depend on the processing

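Of 382 alternative values for 21 results, 379 kept the direction and the side of the threshold of the value reported, or moved by less than the spread between arrays. For the members' median that spread was 0.29, larger than their medians for R47H minus KO, CV minus KO and female minus male. Those medians could change sign and still be counted as kept, so the tally does not show how stable they are. The sign changed in 1, the members' median for female minus male, which was -0.03 without KO mouse 1. With the replicate block in place of sex, the count of called members was 1 for CV minus KO and 1 in the F-test of any genotype difference, against 0 for both in the model with sex. The gene was Samd9l, at 0.75 for CV minus KO with a limma adjusted p of 0.0232, and 0.0384 in the F-test. The adjusted p of Samd9l for CV minus KO ran from 0.0232 to 0.393 over all alternatives. Mouse numbers were not shown to pair the mice: deviations of same-numbered mice correlated at -0.04 to 0.36, above 0.1 in 7 of 9 pairs. Leaving out each array in turn, the count of called members stayed at 0 in every comparison. The members' median difference then ran from 0.01 to 0.45 for R47H minus KO, from 0.10 to 0.60 for R47H minus CV, from -0.25 to -0.04 for CV minus KO and from -0.03 to 0.19 for female minus male. The lowest and highest values for R47H minus KO and R47H minus CV came from leaving out R47H mouse 3 and R47H mouse 2. Over all tested genes, the calls for CV minus KO numbered 131, against 77 without the sex term, 54 with the arrays of those groups alone, 78 with each probe set tested singly, and 59 (without CV mouse 1) to 172 (without KO mouse 3) when each array was left out. For R47H minus CV they numbered 86, against 48 without the filter, 25 with each probe set tested singly and 119 with array weights, and 9 to 132 when each array was left out. For R47H minus KO they numbered 9, against 0 to 7 when each array was left out. They were 1 with the arrays of those groups alone, 13 with array weights and 15 with limma's trend and robust settings.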

Other observations

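The 36 interferon-stimulated genes were not ordered alike over the CV and the KO mice. In CV, mouse 3, a male, was above mouse 2 in 35 of 36 members and above the female in 28, by a median of 0.44 and 0.18 on the log2 scale. In KO the female, mouse 1, was above mouse 2 in 33 of 36 members and above mouse 3 in 26, by a median of 0.42 and 0.27. These are differences between single arrays and carry no test.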
